A study of Saccharomyces cerevisiae with 18 samples.

Results

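The small subunit processome is the large nucleolar particle that forms on the nascent ribosomal RNA precursor of budding yeast (Saccharomyces cerevisiae). The U3 small nucleolar RNA, its proteins and several preformed subcomplexes join in it, and its work is required for the cleavages that release the RNA of the small ribosomal subunit. The genes for its proteins belong to the ribosome biogenesis genes, whose transcripts are known to be abundant when yeast grows fast on glucose. The genes described here were taken from a list of 45 processome protein genes, each measured through probe sets that match 1 gene. All 45 had such a probe set, among 5656 genes that had one, and all 45 passed the filter on low values that left 5545 genes for testing.

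RNA was measured on 18 Affymetrix yeast S98 arrays, with 3 strains grown exponentially in synthetic complete medium with either ethanol or glucose. The far1Δ strain lacks FAR1, which codes for an inhibitor of the cyclin-dependent kinase, through a HIS3 insertion. The FAR1OE strain carries the plasmid pTet-FAR1-15Myc, which expresses Myc-tagged FAR1 from a tetracycline-type promoter. The wild type (WT) is W303-1A, labelled MATa with the alleles can1-100, ura3-1, trp1-1, ade2-1 and his3-11 and a double mutation of LEU2, and is the background of both other strains. No plasmid is named for WT or far1Δ. Each of the 6 groups had 3 arrays from cultures described as independent, and the study asked how FAR1 dosage shapes transcription in each carbon source.

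Some arrays stood apart or went against their labels. Deposited FAR1 intensity was 2595.7 on far1Δ ethanol array 3, against 4.8 and 5.3 on the other arrays of that group, and 3.3 on FAR1OE ethanol array 3, against 2554.1 and 2722.3. Groups are named by their labels throughout, and the counts of called processome genes that use these 2 arrays are also given without both. On FAR1OE glucose arrays 1 and 3 the actin 5′ probe set had lost its signal: the log2 ratio of the 3′ to the 5′ actin probe set was 8.18 to 9.07 there, against 0.32 to 1.04 on the other 16 arrays. The strains are labelled MATa, yet the 7 MATa markers lay between 0.1 and 11.4 on the 18 arrays, while the MATα markers STE3, a receptor gene, and MF(ALPHA)1, a pheromone gene, lay between 38.4 and 136.4 and between 445.7 and 2399.4. The other 2 MATα markers were low in ethanol, with SAG1 at 8.2 to 20.5 in ethanol and 37.2 to 126.7 in glucose, and MF(ALPHA)2 at 2.4 to 5.1 in ethanol, within the range of the MATa markers, and 234.5 to 1010.7 in glucose. The carbon source labels fitted their markers, with ADH2, an alcohol dehydrogenase gene, at 3009 to 4658 in ethanol and at 9 to 27 in glucose. Across genes, the lowest correlation between replicates was r = 0.946 and the highest 0.979.

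Most of the 45 processome transcripts were lower in ethanol than in glucose in every strain, by about 2-fold at the median. Values below are intensities after quantile normalization, and a change is a difference on the log2(intensity + 0.4) scale with its standard error (SE) from a limma fit over all 18 arrays. A gene was called at a Benjamini-Hochberg adjusted p under 0.05 over the 5545 genes. In WT, 41 of the 45 genes were called lower and 0 higher, where 21% of all tested genes were called lower and 22.4% higher. The median change was -1.04, a median level in ethanol of 48.6% of that in glucose, and 23 genes were at least 2-fold lower. In far1Δ, 42 were called lower and 0 higher, with a median change of -0.97 and 21 genes at least 2-fold lower, where 21.2% of all genes were called lower and 21.7% higher. In FAR1OE, 40 were called lower and 0 higher, with a median change of -0.89 and 18 genes at least 2-fold lower, where 22.9% of all genes were called lower and 17.3% higher. The median change of all tested genes was 0.00 in WT, -0.01 in far1Δ and -0.09 in FAR1OE. Of all tested genes, 7.43% lay below the processome median in WT, 9.65% in far1Δ and 11.1% in FAR1OE. The arrays weigh each transcript against the rest of the RNA, so fewer cells with a transcript and less of it per cell cannot be told apart.

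**Figure D1:**
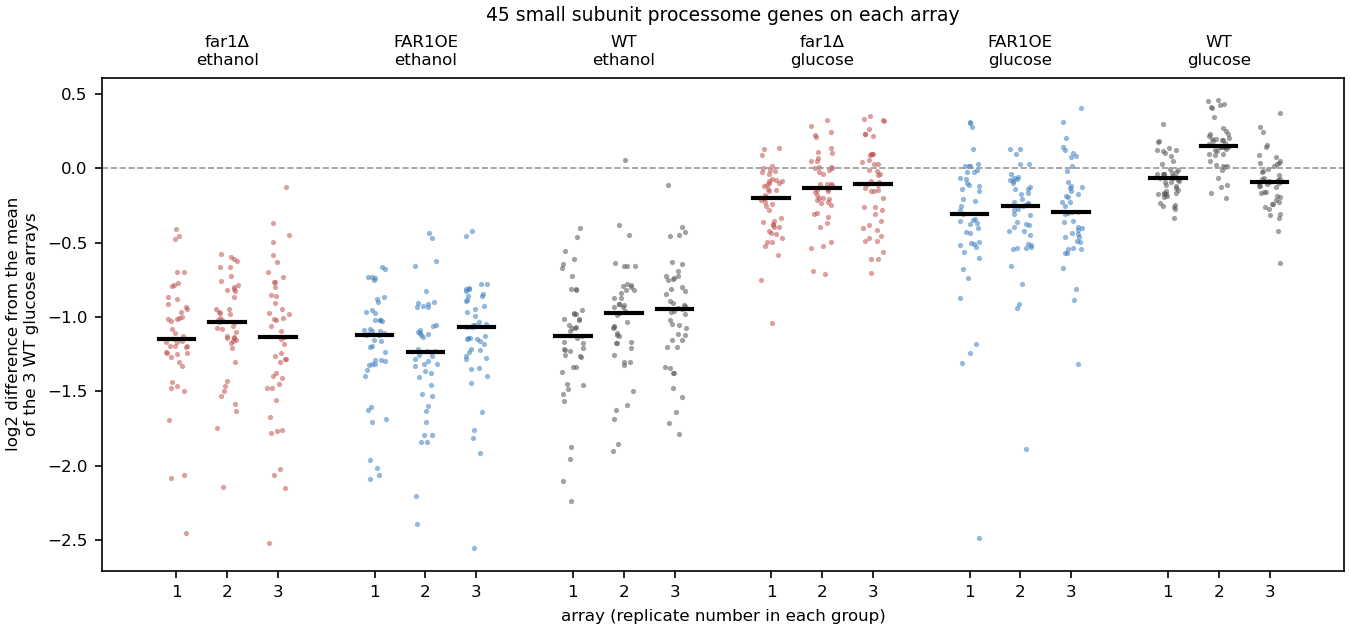
The log2 difference of each of the 45 processome genes from its mean over the 3 WT glucose arrays, for the 18 arrays grouped by strain and carbon source. Points are genes and bars are medians: the 9 ethanol arrays have medians of -1.24 to -0.94, and the 9 glucose arrays -0.30 to 0.15.

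The shift was present on each array. The median difference of the 45 genes from the WT glucose mean was -1.15, -1.03 and -1.13 on the far1Δ ethanol arrays, -1.12, -1.24 and -1.07 on the FAR1OE ethanol arrays, and -1.13, -0.97 and -0.94 on the WT ethanol arrays. On the glucose arrays it was -0.20, -0.13 and -0.11 in far1Δ, -0.30, -0.26 and -0.29 in FAR1OE, and -0.07, 0.15 and -0.09 in WT. On 8 of the 9 ethanol arrays all 45 genes lay below their WT glucose mean, and on WT ethanol array 2 it was 44. The 3 ethanol intensities lay below the 3 glucose intensities without overlap for 43 genes in WT, 43 in far1Δ and 40 in FAR1OE, where 27.2%, 26% and 29.4% of all tested genes did so. Without both ethanol arrays whose FAR1 signal opposes the label, 41 genes were called lower in far1Δ and 40 in FAR1OE, where 18.4% and 22.1% of all genes were. Without the FAR1OE glucose arrays that lack actin 5′ signal, 33 were called lower in FAR1OE, where 11.4% of all genes were, and the median change was -0.90.

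The place of the processome medians below the median of all genes was kept without scaling between arrays, but the number of calls was not. On the deposited intensity scale, with no scaling between arrays, all tested genes had a median change of 0.66 in WT, 0.36 in far1Δ and 0.27 in FAR1OE. The processome medians there were -0.30 in WT, -0.56 in far1Δ and -0.54 in FAR1OE. In the same order, 7, 11 and 11 genes were called lower, where 174, 376 and 337 of all tested genes were. The change was negative there for 38 of the 45 genes in WT, 41 in far1Δ and 41 in FAR1OE. Set against the median of all genes on that scale, 45 genes lay below it in WT, 44 in far1Δ and 42 in FAR1OE. That step is the same as centring array medians, so it is not a check free of normalization. The split of all genes called in WT also moved with the scale, with 1162 lower and 1242 higher after quantile normalization, and 174 lower and 2372 higher on the deposited scale.

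The UTP-A complex, which binds the 5′ end of the precursor first, had all 7 genes called lower in WT and far1Δ and 6 of 7 in FAR1OE. Its median change was -1.08 in WT, -1.07 in far1Δ and -0.86 in FAR1OE. UTP5 had the largest change of the complex in WT, with intensities of 15.6, 20.3 and 24.3 in WT ethanol against 61.8, 70.9 and 54.2 in WT glucose. The groups were well apart, and the change was -1.63 ± 0.36 (SE, n = 3 arrays per group, limma adjusted p = 0.00125). In far1Δ UTP5 had 11.0, 22.7 and 17.7 in ethanol against 43.9, 52.1 and 45.1 in glucose, a change of -1.49 that was called. In FAR1OE it had 15.0, 17.6 and 24.1 in ethanol against 10.7, 16.4 and 42.6 in glucose, so that the groups overlapped and the change of -0.08 was not called. The other 6 genes of the complex, UTP4, UTP8, UTP9, UTP10, UTP15 and NAN1, were called lower in all 3 strains. Their changes in WT ran from -1.17 for NAN1 to -0.84 for UTP8.

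The UTP-B complex, which joins after UTP-A, had all 6 genes called lower in all 3 strains. Its median change was -1.0 in WT, -0.98 in far1Δ and -1.02 in FAR1OE. DIP2 had the largest change in WT, with 23.7, 26.2 and 19.7 in WT ethanol against 53.6, 61.7 and 52.0 in WT glucose, a change of -1.26 ± 0.17 (limma adjusted p = 9.75e-06). PWP2 had the smallest in WT at -0.74 and stood at -1.01 in both far1Δ and FAR1OE. UTP6, UTP13, UTP18 and UTP21 lay between these in WT.

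All 5 protein genes of the U3 particle were called lower in all 3 strains, with medians of -0.99 in WT, -0.97 in far1Δ and -1.09 in FAR1OE. NOP1, the fibrillarin methyltransferase, had 122, 134 and 131 in WT ethanol against 216, 273 and 285 in WT glucose. The change of NOP1 was -0.99 in WT, -1.37 in far1Δ and -1.24 in FAR1OE. NOP56, a scaffold protein shared by the box C/D particles, had 48.9, 39.3 and 40.7 in WT ethanol against 157, 139 and 94.7 in WT glucose. Its change was -1.56 ± 0.18 in WT (limma adjusted p = 1.95e-06), -0.88 in far1Δ and -1.25 in FAR1OE. NOP58, the partner of NOP56, SNU13, which binds the RNA fold of the particle and also serves the spliceosome, and RRP9, which is particular to U3, had changes of -1.10, -0.94 and -0.89 in WT.

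In the MPP10 complex, IMP3 and IMP4, which help U3 pair with the precursor, were called lower in all 3 strains, while MPP10 itself was called in far1Δ alone. IMP4 had 25.5, 25.6 and 33.9 in WT ethanol against 57.6, 66.2 and 56.4 in WT glucose, a change of -1.08 ± 0.16 (limma adjusted p = 2.02e-05). MPP10 had 14.7, 14.6 and 17.2 in far1Δ ethanol against 32.4, 43.0 and 41.3 in far1Δ glucose, a change of -1.30. In WT its change was -0.63 ± 0.28 with an adjusted p of 0.0804, although the 3 ethanol values of 24.8, 17.2 and 25.0 lay below the 3 glucose values of 31.5, 46.1 and 27.7. In FAR1OE, MPP10 had 21.4, 17.7 and 13.2 in ethanol against 13.6, 31.3 and 13.5 in glucose, a change of -0.06. The low glucose values were those of arrays 1 and 3, which lack actin 5′ signal, and without them the change was -0.84 with an adjusted p of 0.0576. Without both ethanol arrays that oppose their labels, MPP10 in FAR1OE had 0.12 with an adjusted p of 0.802. Whether that loss set the MPP10 values was not tested.

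The 2 genes of the UTP-C complex on the list, UTP22 and RRP7, had the smallest medians of any subcomplex, -0.54 in WT, -0.49 in far1Δ and -0.53 in FAR1OE. RRP7 was called in WT and FAR1OE, and UTP22 in far1Δ alone. RRP7 had 23.6, 23.7 and 28.3 in WT ethanol against 31.2, 34.1 and 48.4 in WT glucose, a change of -0.56 ± 0.21 (limma adjusted p = 0.0370). That call was lost without WT glucose array 3 (-0.37, adjusted p = 0.184) and without WT ethanol array 1 or 2. On the deposited scale the RRP7 change in WT was 0.18, against a median of 0.66 for all genes. In far1Δ, RRP7 had 28.0, 23.3 and 26.3 in ethanol against 36.2, 22.6 and 24.3 in glucose, and the change of -0.07 was not called. UTP22 had 27.3, 68.9 and 71.9 in far1Δ ethanol against 98.2, 95.1 and 96.5 in far1Δ glucose, with ethanol array 1 far below the other two. Its change was -0.91 (limma adjusted p = 0.0136), and without that array it was -0.46 and not called (adjusted p = 0.0865). Its values in WT of -0.51 and in FAR1OE of -0.24 were not called.

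**Figure D2:**
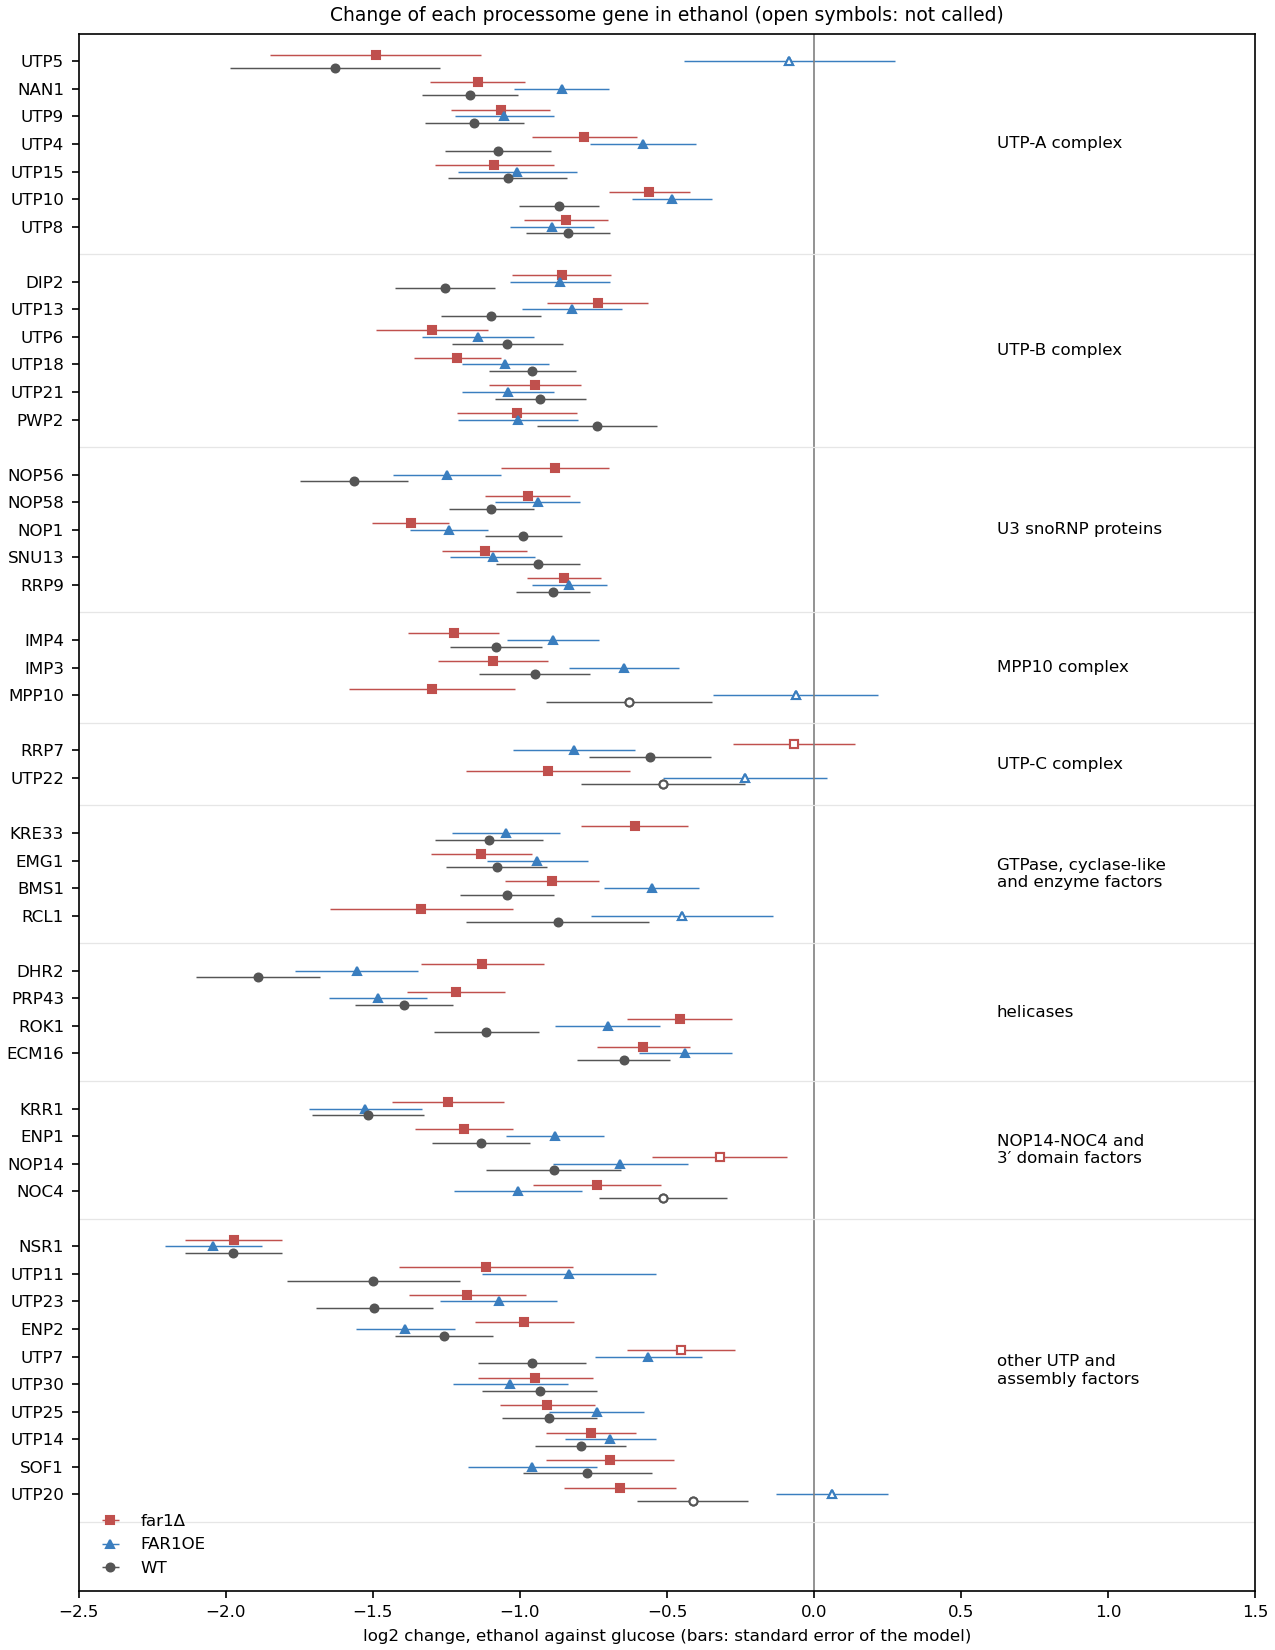
The change of each of the 45 genes in ethanol against glucose (log2, horizontal axis; bars are the standard error of the model) in far1Δ, FAR1OE and WT, by subcomplex or role, with open symbols where the gene was not called. All symbols lie below 0 except that of UTP20 in FAR1OE, which lies at 0.06.

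Among the enzymes, BMS1, a GTPase, EMG1, a methyltransferase, and KRE33, an RNA acetyltransferase, were called lower in all 3 strains. RCL1, the cyclase-like partner of BMS1, was called in WT and far1Δ. KRE33 had 4.90, 5.68 and 5.61 in WT ethanol against 13.7, 10.5 and 12.2 in WT glucose. The change of KRE33 was -1.10 ± 0.18 (limma adjusted p = 8.89e-05). KRE33 was dim, with deposited values of 8.2, 7.1 and 9.7 in WT glucose, where the array medians were 8.5, 9.4 and 11.3. In WT ethanol its deposited values were 5.6, 6.1 and 7.7, where the array medians were 15.8, 14.4 and 19.5. RCL1 had 17.0, 19.1 and 40.3 in WT ethanol against 41.1, 38.8 and 51.6 in WT glucose, so that its groups overlapped through 1 ethanol array. Its change was -0.87 in WT, -1.33 in far1Δ and -0.45 in FAR1OE, with an adjusted p of 0.271 in the last.

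All 4 helicase genes were called lower in all 3 strains, with medians of -1.25 in WT, -0.85 in far1Δ and -1.09 in FAR1OE. DHR2 had 10.8, 13.0 and 14.3 in WT ethanol against 45.7, 56.2 and 42.5 in WT glucose, which left 0.270 of the glucose level. The change was -1.89 ± 0.21 in WT (limma adjusted p = 1.01e-06), -1.13 in far1Δ and -1.55 in FAR1OE. PRP43, a helicase that also takes spliceosomes apart, changed by -1.39 ± 0.17 in WT (limma adjusted p = 2.31e-06), -1.22 in far1Δ and -1.48 in FAR1OE. ROK1 had -1.11 in WT and -0.46 in far1Δ (limma adjusted p = 0.0474). Without both ethanol arrays that oppose their labels, ROK1 in far1Δ had -0.52 and was not called (adjusted p = 0.0560). ECM16, the helicase known to displace U3, had -0.65 in WT and -0.58 in far1Δ.

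Of the factors of the NOP14 and NOC4 module and the 3′ part of the small subunit RNA, ENP1 and KRR1 were called lower in all 3 strains. KRR1, an RNA-binding assembly factor, had 12.6, 18.9 and 17.9 in WT ethanol against 41.8, 52.1 and 48.1 in WT glucose. The change of KRR1 was -1.52 ± 0.19 in WT (limma adjusted p = 4.39e-06), -1.24 in far1Δ and -1.53 in FAR1OE. NOP14 was not called in far1Δ (-0.32), and NOC4, its partner, was not called in WT (-0.51), where 1 ethanol array at 25.1 lay among glucose values of 21.5, 30.8 and 21.2.

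NSR1, a nucleolin-like RNA-binding protein gene, had the largest change of the 45 genes in each strain. It had 56.1, 53.1 and 52.7 in far1Δ ethanol against 209, 202 and 230 in far1Δ glucose. In FAR1OE it had 60.1, 44.5 and 66.9 in ethanol against 286, 200 and 222 in glucose, and in WT 49.8, 62.7 and 68.2 in ethanol against 215, 252 and 242 in glucose. The groups were far apart in all strains, and the changes were -1.97 in far1Δ, -2.04 in FAR1OE and -1.97 ± 0.16 in WT, where the limma adjusted p was 2.69e-08. On the deposited scale NSR1 was also called in each strain, at -1.75 in far1Δ, -1.79 in FAR1OE and -1.40 in WT.

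Of the other 9 assembly factors, UTP11, UTP14, UTP23, UTP25, UTP30, SOF1 and ENP2 were called lower in all 3 strains. UTP23, a factor of the snR30 step, changed by -1.49 in WT, UTP11 by -1.50 and ENP2 by -1.26. UTP11 was dim in WT ethanol, with deposited values of 6.6, 6.1 and 7.6, where the array medians were 15.8, 14.4 and 19.5. UTP14, the activator of the helicase ECM16, changed by -0.79 in WT, -0.76 in far1Δ and -0.69 in FAR1OE. UTP7 was not called in far1Δ (-0.45, limma adjusted p = 0.0541). UTP20, a very long helical repeat protein, was called in far1Δ alone (-0.66), with -0.41 in WT and 0.06 in FAR1OE.

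Over the strains, 36 of the 45 genes were called lower in all 3, and 6 in 2 of them: UTP5, RRP7, RCL1, NOP14, NOC4 and UTP7. MPP10, UTP22 and UTP20 were called in 1. Of all tested genes, at most 21% can have been called lower in all 3, since 21% were called lower in WT. Without both ethanol arrays that oppose their labels, 35 of the 45 were called lower in all 3, as ROK1 lost its call in far1Δ. In that setting 18.4% of all genes were called lower in far1Δ. Without FAR1OE glucose arrays 1 and 3, which lack actin 5′ signal, not all of the 36 kept their call in FAR1OE. Those that did not were UTP4 (-0.51), UTP13 (-0.68), BMS1 (-0.62), ROK1 (-0.51), ECM16 (-0.43) and UTP11 (-0.43). That fit has 1 FAR1OE glucose array. Leaving out 1 array of the 2 groups compared took the call from RRP7, RCL1 or SOF1 in WT, from ROK1, KRE33, SOF1 or UTP22 in far1Δ, and from UTP4, UTP7, UTP11, IMP3, BMS1, ECM16 or NOP14 in FAR1OE. It also added NOC4 in WT, without ethanol array 2 (-0.80, limma adjusted p = 0.00405), and UTP7 in far1Δ, without ethanol array 2 (-0.54, adjusted p = 0.0430). UTP11 in far1Δ kept its call but moved to -0.72 without ethanol array 3, against -1.11 with all arrays. Across the 45 genes the changes of far1Δ and WT correlated at Pearson r = 0.547 and Spearman rho = 0.447. FAR1OE and WT had r = 0.605 and rho = 0.512, and far1Δ and FAR1OE r = 0.379 and rho = 0.394. Without both ethanol arrays that oppose their labels, r was 0.495 for far1Δ and WT, 0.641 for FAR1OE and WT, and 0.348 for far1Δ and FAR1OE. Each strain's change comes from its own arrays, the 45 genes are not independent replicates, and these are descriptions without a test.

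**Figure D3:**
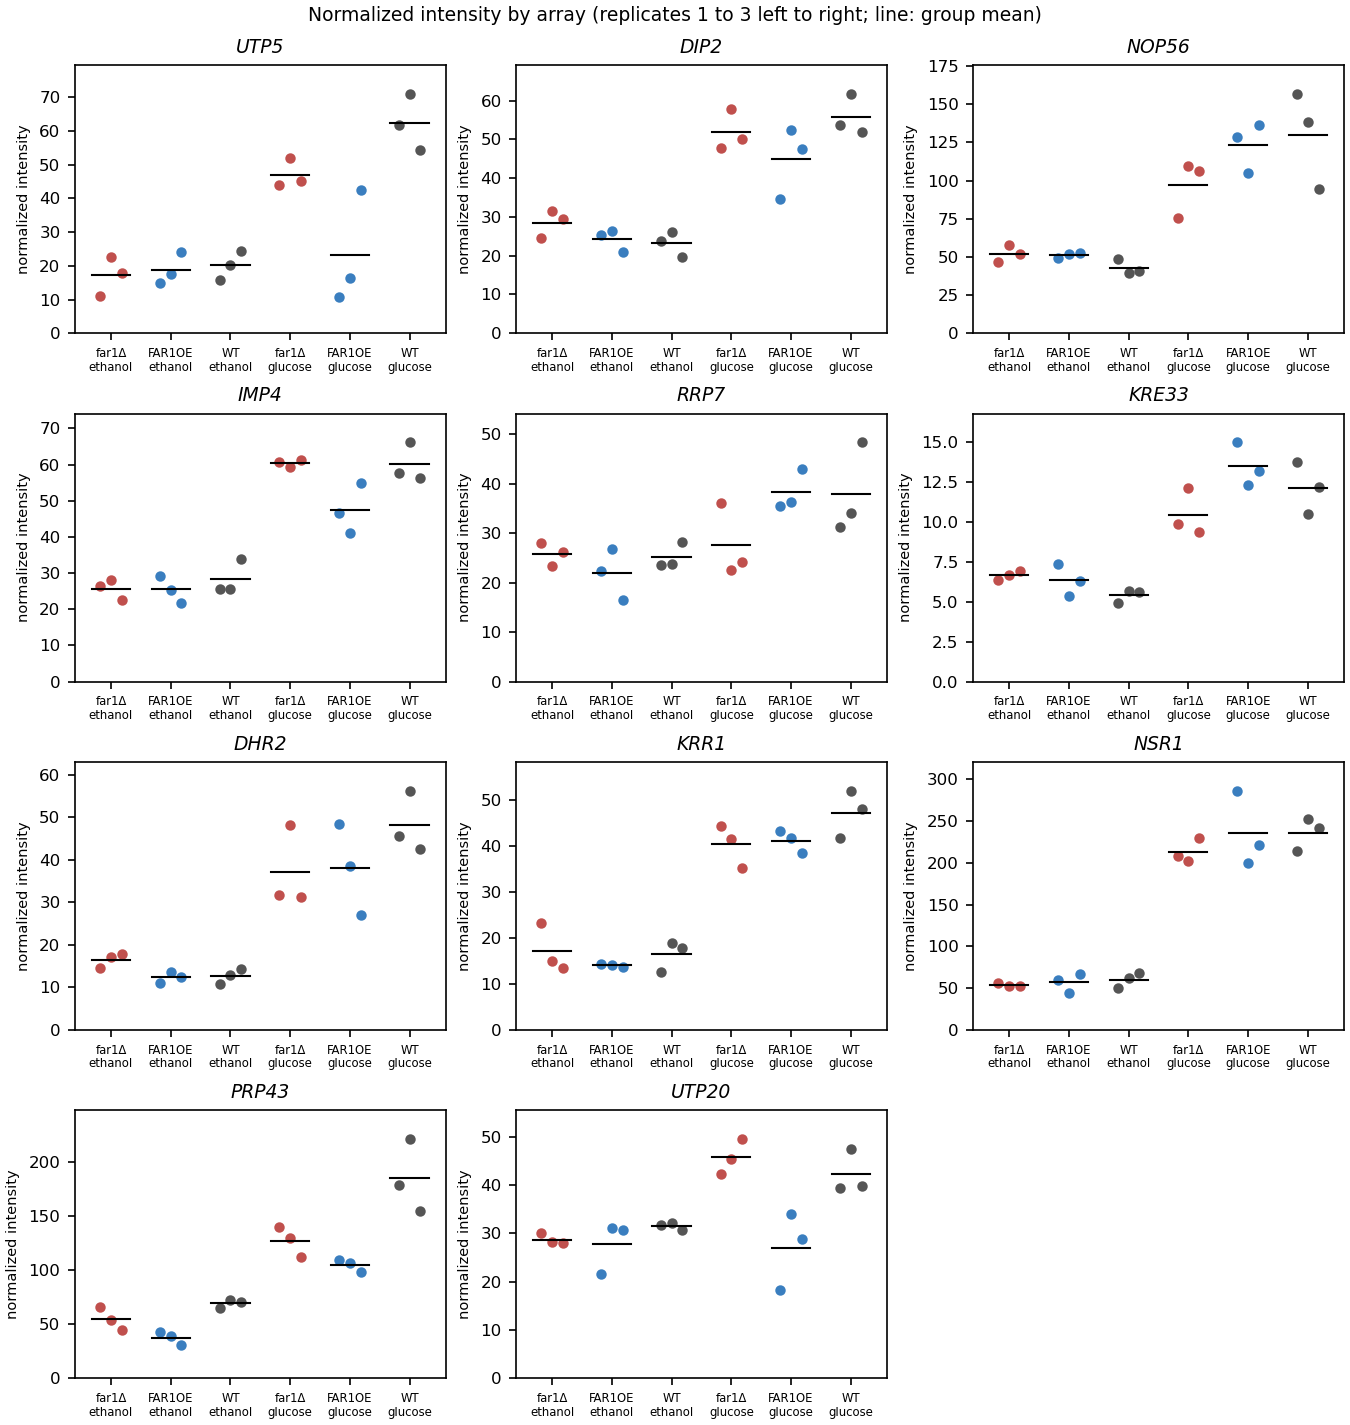
Normalized intensity (linear axis from 0) of 11 processome genes on each of the 18 arrays, with replicates 1 to 3 from left to right in each group and a line at the group mean. NSR1 lies at 44.5 to 68.2 on the ethanol arrays and at 200 to 286 on the glucose arrays, while UTP5 on FAR1OE glucose arrays 1 and 2 (10.7 and 16.4) lies among the ethanol values.

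The difference between strains in the ethanol change was tested directly, as the change in far1Δ or FAR1OE minus that in WT. For neither strain was any of the 45 genes called, in either direction, by limma, where 0% of all genes were called in far1Δ, and 0.162% lower and 0.018% higher in FAR1OE. At an unadjusted p under 0.05, far1Δ had 3 genes with a smaller fall than WT and 0 with a larger one, where 3.73% of all genes were higher and 4.67% lower at that threshold. These 3 were DHR2 (0.76 ± 0.30), NOP56 (0.68 ± 0.26) and ROK1 (0.66 ± 0.25), with adjusted p of 0.517 to 0.528. A gene called in 1 strain and not in another is thus not shown to differ between them. FAR1OE had 2, UTP5 (1.54 ± 0.51, adjusted p = 0.210) and BMS1 (0.49 ± 0.23, adjusted p = 0.349), and 0 lower, where 3.48% of all genes were higher and 10.2% lower at the unadjusted threshold. Without both ethanol arrays that oppose their labels, limma called 0 of the 45 genes in either strain. Of the 5538 genes tested in that setting, it called 0 in far1Δ and 45 in FAR1OE. The median difference over the 45 genes was 0.04 in far1Δ and 0.16 in FAR1OE, beside 0.00 and -0.10 for all tested genes. On the deposited scale both processome medians turned negative, at -0.28 in far1Δ and -0.20 in FAR1OE, beside -0.30 and -0.42 for all genes.

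Between strains in glucose, few processome genes were called, 3 in FAR1OE and 0 in far1Δ. In far1Δ against WT, limma called 0 of the 45 genes in either direction, where 0.361% of all genes were called lower and 1.23% higher. At an unadjusted p under 0.05, 6 were lower and 0 higher, where 6.76% of all genes were lower and 7.25% higher. The median change was -0.17 beside -0.02 for all genes, 34 of 45 were negative, and PRP43 had the smallest adjusted p (-0.53 ± 0.17, adjusted p = 0.146). In FAR1OE against WT, 3 genes were called lower and 0 higher, where 1.97% of all genes were called lower and 5.3% higher. At an unadjusted limma p under 0.05, 19 were lower and 0 higher, where 7.20% of all genes were lower and 15.6% higher. The median change was -0.33 beside 0.07 for all genes, and 40 of 45 were negative. The 3 FAR1OE intensities lay below the 3 WT intensities for 17 genes, where 7.66% of all genes did so. Both strains are set against the same 3 WT arrays. On the deposited scale both medians were positive, 0.27 in far1Δ beside 0.40 for all genes and 0.16 in FAR1OE beside 0.49, so the sign of these medians depends on the scale. Both lay below the median of all genes on that scale too. Setting them against that median is the same as centring array medians, so it is not a check free of normalization.

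The genes called in FAR1OE in glucose were PRP43, UTP5 and UTP20. PRP43 had 109, 107 and 98.6 in FAR1OE glucose against 179, 221 and 155 in WT glucose, a change of -0.80 ± 0.17 (limma adjusted p = 0.00734). In far1Δ glucose PRP43 had 140, 130 and 112, also below all WT values. UTP5 had 10.7, 16.4 and 42.6 in FAR1OE glucose against 61.8, 70.9 and 54.2 in WT glucose, a change of -1.64 ± 0.36 (limma adjusted p = 0.00982). The FAR1OE values of UTP5 spread widely, since array 3 lay well above the other two. UTP20 had 18.3, 34.1 and 28.9 in FAR1OE glucose against 39.5, 47.5 and 39.9 in WT glucose, a change of -0.68 ± 0.19 (limma adjusted p = 0.0380). MPP10 came next, at -0.92 with an adjusted p of 0.0551.

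These calls rested on few arrays. Leaving out 1 array in turn gave 0 to 5 called genes. There were 0 without WT glucose array 2, and 5 without WT glucose array 3 or FAR1OE glucose array 2. The count of all tested genes called lower moved too, from 34 without WT glucose array 2 to 215 without FAR1OE glucose array 2. Without FAR1OE glucose array 1, 1 gene was called, and UTP5 stood at -1.21 with an adjusted p of 0.0628. Without both arrays that lack actin 5′ signal, UTP5 alone was called (-1.88 ± 0.34, limma adjusted p = 0.0145), where 0.56% of all genes were called lower, and the median of the 45 genes was -0.26. In that fit, with 1 FAR1OE glucose array whose spread is taken from the other groups, PRP43 had -0.77 with an adjusted p of 0.199, UTP20 had -0.30 with 0.733, and MPP10 had -0.13. With both groups fitted alone, 0 genes were called, and PRP43 had an adjusted p of 0.0527. The spike-in control BioDn had a 5′ to 3′ intensity ratio of 0.456 to 0.575 on the 6 FAR1OE arrays and of 0.169 to 0.231 on the 6 WT arrays, so between these strains it cannot be told apart from FAR1 dosage. On 5 of the 6 far1Δ arrays the ratio was 0.369 to 0.571, and on far1Δ glucose array 1 it was 0.174, so in ethanol the split cannot be told apart from the difference between far1Δ and WT either, and in glucose 1 far1Δ array lies on the WT side of it. With this split as a block, which rests on far1Δ glucose array 1, 0 genes were called, and the median change was -0.45. The medians of far1Δ against WT with the block were -0.20 in glucose and -0.19 in ethanol, with 0 genes called in both.

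**Figure D4:**
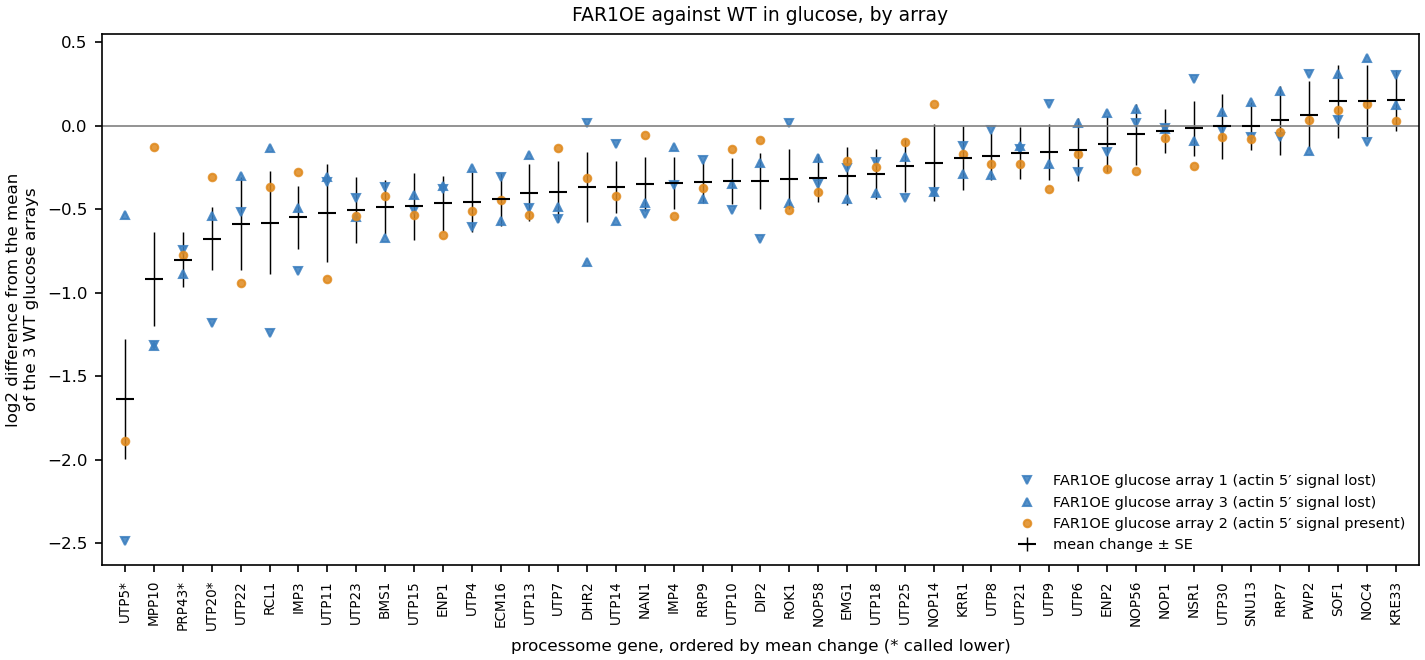
The log2 difference of each processome gene on the 3 FAR1OE glucose arrays from its mean over the 3 WT glucose arrays, ordered by the mean change, which is drawn with its standard error; an asterisk marks the 3 called genes. PRP43 lies close together on the 3 arrays, MPP10 is low on arrays 1 and 3 and not on array 2, and UTP5 is lowest on array 1.

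UTP20 and UTP22 are also measured by further probe sets, and some of these read the arrays without actin 5′ signal differently from the third array. Probe set 2468_s_at of UTP20 had 0.0699, 27.6 and 0.0417 on FAR1OE glucose arrays 1, 2 and 3, against 28.6, 30.4 and 20.9 in WT glucose. Probe set 2467_s_at of UTP20 had 0.182, 17.1 and 0.142 against 8.84, 13.6 and 10.9. Probe set 2218_s_at of UTP22 had 3.73, 27.2 and 0.393 against 63.6, 35.5 and 32.6. In these 3 probe sets the arrays without actin 5′ signal were far below WT and array 2 was near the WT values. Probe set 2469_s_at of UTP20 kept signal, with 7.95, 11.3 and 8.17 on FAR1OE glucose arrays 1, 2 and 3 against 14.7, 11.1 and 13.6 in WT glucose. The 6 dimmest probe sets of UTP20 had mean deposited intensities of 0.861 to 3.22 over the 18 arrays. The brighter probe sets used for the calls, 7357_at of UTP20 and 4926_at of UTP22, kept signal on all 3 arrays. With the mean of all 10 probe sets of UTP20 in place of the brightest, its change was -1.15 and not called (adjusted p = 0.163). The positions of these probe sets along the transcripts were not used here, and the part of RNA quality in the UTP20 call was not tested.

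Between strains in ethanol, 0 of the 45 genes were called in far1Δ against WT by limma in either direction, where 0% of all genes were called lower and 0.0721% higher. At an unadjusted p under 0.05, 3 were lower and 0 higher, where 3.73% of all genes were lower and 3.1% higher. The median was -0.11. Without both arrays whose FAR1 signal opposes the label it was -0.02, and limma again called 0 of the 45 genes. In FAR1OE against WT 1 gene, PRP43, was called lower and 0 higher, where 0.162% of all genes were called lower and 0.234% higher. At an unadjusted limma p under 0.05, 5 were lower and 0 higher, where 5.86% of all genes were lower and 5.05% higher. PRP43 had 42.6, 39.4 and 30.7 in FAR1OE ethanol against 65.0, 72.9 and 70.3 in WT ethanol, a change of -0.89 ± 0.17 (limma adjusted p = 0.0253). The lowest of these values was on array 3, whose FAR1 signal was low. Without both arrays that oppose their labels, PRP43 had -0.76 ± 0.16 with a limma adjusted p of 0.0192 and was still the only one of the 45 called, where 0.939% of all genes were called lower. The median change of the 45 genes was -0.15 with all arrays and -0.18 without both. PRP43 lay below all WT values on all 3 FAR1OE arrays of either carbon source. The call in ethanol was lost with array medians centred (adjusted p = 0.0574), with the 2 groups fitted alone (0.0706) and with no intensity trend (0.0506). It was also lost without FAR1OE ethanol array 2 or any 1 of the 3 WT ethanol arrays (adjusted p of 0.0788 to 0.123). With the BioDn split entered as a block the limma adjusted p was 0.820. That block rests on far1Δ glucose array 1, so the fit cannot decide on the PRP43 call.

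The processome genes were set beside other lists of ribosome synthesis genes in the same fits. Of 35 other small subunit assembly genes, 31 were called lower in WT ethanol and 0 higher, with a median of -0.93. They were led by ESF1 (-1.91 ± 0.35) and NOP9 (-1.66 ± 0.22), both factors of early small subunit assembly. Of 60 large subunit assembly genes, 57 were called lower and 1 higher, with a median of -0.98, led by NIP7 (-1.58) and RRP1 (-1.56). The gene called higher was TIF6, an anti-association factor of the large subunit, at 0.49 ± 0.13 (limma adjusted p = 0.00702). All 3 tested genes of the H/ACA particle, which guides pseudouridine formation, were called lower, with GAR1 at -1.18 and CBF5 at -0.85. Of the 4 casein kinase 2 subunit genes, whose products are part of UTP-C, only CKB2 was called (-0.88 ± 0.23), and CKA2 had -0.28.

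RNA polymerase I genes and ribosomal protein genes had medians nearer to 0. Of 15 polymerase I genes, 8 were called lower in WT, with a median of -0.52, led by RPA12 (-1.57) and RPA43 (-1.41). Of 80 cytosolic ribosomal protein genes, 24 were called lower and 2 higher, with a median of -0.19, where RPL7B (-1.49) and RPL22B (-1.08) had the largest changes. In far1Δ 38 and in FAR1OE 39 of the 80 were called lower, with medians of -0.35 and -0.38. Against the WT glucose mean, their median was -0.58 on far1Δ ethanol array 3, whose FAR1 signal opposes its label. It was -0.19 and -0.16 on far1Δ ethanol arrays 1 and 2. On FAR1OE glucose arrays 1 and 3, which lack actin 5′ signal, it was 0.12 and 0.16, and on array 2 it was 0.01. The part of these arrays in the counts was not tested. Many ribosomal protein genes have a near-identical copy whose RNA can bind the same probes, so values of single members are uncertain. Of 14 regulators of ribosome synthesis, 5 were called higher and 2 lower in WT ethanol. CRF1, a corepressor of ribosomal protein genes, had 2.24 ± 0.48, and TOD6, a repressor of ribosome biogenesis genes, had -1.14 ± 0.20. SFP1, the activator named in the study's title, had 0.45 ± 0.17 in WT (limma adjusted p = 0.0397), -0.03 in far1Δ and -0.22 in FAR1OE, the last 2 not called.

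**Figure D5:**
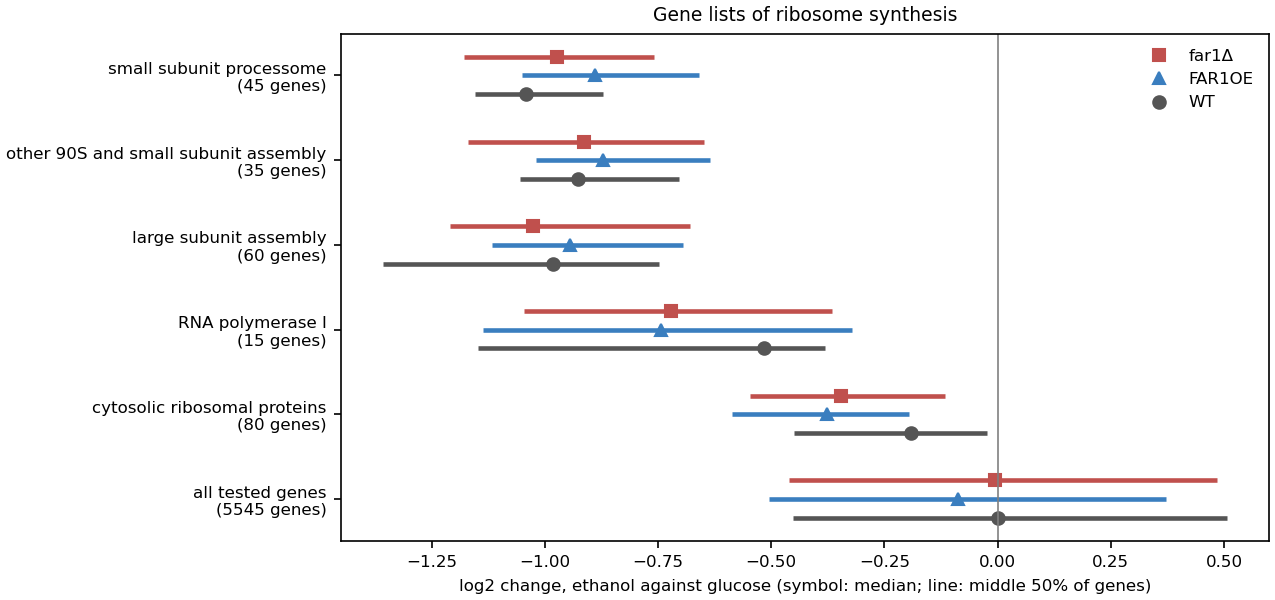
Median change in ethanol against glucose (log2, symbol) and the middle 50% of genes (line) for the 45 processome genes, 4 other lists and all 5545 tested genes, in far1Δ, FAR1OE and WT. The processome medians of -1.04 to -0.89 lie beside those of the other assembly lists, and the ribosomal protein medians of -0.38 to -0.19 lie nearer to 0.

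In FAR1OE against WT in glucose, the other small subunit assembly list had 3 of 35 called lower and 0 higher, with ESF1 at -1.28 and RIO1 at -1.05, and a median of -0.14. The large subunit list had 2 of 60 called lower and 1 higher, with NOP4 at -0.82 and TIF6 at 1.43, and a median of -0.16. Ribosomal protein genes had 2 of 80 lower and 5 higher, with RPL7B at -1.20 and RPL7A at -0.88, and a median of 0.07. The processome median of -0.33 stood below these, and the difference between lists was not tested.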

How the data were processed

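Total RNA of 18 yeast cultures was converted to biotin-labelled cRNA with a One-Cycle kit and hybridised to Affymetrix yeast S98 arrays, per the labels' protocols. The authors deposited 1 linear signal intensity per probe set and array, made with GCOS per the submitters' processing notes. The GCOS version, its algorithm and scaling are unknown here (not given in the sources used here), as is the genome build, and no coordinates are printed. Of 9335 probe sets, 60 controls were left out, 6504 matched 1 gene, 328 matched several and 2443 none, in the platform annotation with RefSeq names. Of the processome genes 42 had 1 probe set and 3 had several, of which the one with the highest mean was used.

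Intensities were taken as log2(intensity + 0.4), quantile normalized over 9275 probe sets, and tested if above the 20th percentile of an array in at least 3 arrays. A model with 6 group means was fitted with limma 3.58.1 (eBayes with intensity trend, R 4.3.3), tested first on simulated data, and adjusted over 5545 genes by Benjamini-Hochberg in each of 9 comparisons. Exact permutation of 3 against 3 arrays cannot go below p = 0.1 and was not used. Alternatives changed the pseudocount, normalization, filter, probe set rule, samples, variance model, replicate block and left-out arrays. Intensities were given on every array for the most changed gene of each role in WT and for genes called between strains, and for some other genes chosen after the values were seen. The members and lists were chosen with earlier results of these data known. Array number limits precision: the standard error of a change was 0.13 to 0.36, and the median coefficient of variation of a gene within a group was 9.59% to 14.4%. P-values measure the spread between these cultures.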

Additional observations from a re-analysis of the deposited data

How the results depend on the processing

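In ethanol against glucose, 38 to 44 processome genes were called lower in each strain under both pseudocounts, centred array medians, both filters, the mean of probe sets, the groups alone, no intensity trend and the left-out ethanol pair. Leaving out 1 array in turn gave 39 to 41 genes in WT, 39 to 42 in far1Δ and 36 to 39 in FAR1OE. Of all tested genes, 964 to 1038, 1005 to 1109 and 1017 to 1292 were called lower in these fits. The deposited scale gave 7, 11 and 11, beside 174, 376 and 337 of all tested genes. On that scale RRP7 in WT turned to 0.18 (limma adjusted p = 0.646). Without both FAR1OE glucose arrays that lack actin 5′ signal, FAR1OE kept 33. Over 45 pairs of arrays that share a replicate number between groups, the correlation of deviations was -0.376 to 0.185, with 8 over 0.1. Arrays with unlike numbers were not set beside these, so whether the numbers pair the cultures was not tested. With the replicate block, 41, 42 and 40 genes were called in WT, far1Δ and FAR1OE.

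In FAR1OE against WT in glucose, the 3 calls became 0 on the deposited scale, with the groups alone and with the BioDn block, 1 without both actin arrays, and 0 to 5 with 1 array left out. In FAR1OE against WT in ethanol, the single call became 0 with centred medians, the deposited scale, the groups alone, no trend and the BioDn block, and 0 to 1 with 1 array left out. The BioDn block rests on far1Δ glucose array 1, so calls lost with it cannot decide on these genes. In the difference of the ethanol change between FAR1OE and WT, 1 gene was called higher without FAR1OE glucose array 3 and 0 otherwise (range 0 to 1). With 1 array left out, 34 to 215 of all tested genes were called lower in FAR1OE against WT in glucose, and 0 to 24 in ethanol. In that difference of the ethanol change, 0 to 57 of all tested genes were called higher. Over comparisons, directions and settings, 106 of 360 counts over all genes moved by over 1.5 times or to or from 0. The same held for 21 of the processome counts. The cause of these shifts was not tested.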

Other observations

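Few processome genes lie beside another gene of the ribosome synthesis lists in the reference gene table, which gives order and strand but is used here for no position. UTP9 and RIX1, a large subunit assembly gene, are neighbours on the same strand, with changes in WT ethanol against glucose of -1.15 and -1.43. RSA3, also of large subunit assembly, and UTP13 are neighbours on the same strand, with -0.94 and -1.10. RRP15 and NOC4 converge, with -0.57 and -0.51, the second not called.

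Probe sets of 1 gene did not always read alike. NOP58, which was called lower through probe set 8246_s_at with a change of -1.10 in WT, had -0.91 through 8247_at, -1.24 through 8245_r_at and -0.04 through 8244_i_at. Through 8244_i_at its change was -0.53 in far1Δ and -0.59 in FAR1OE.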
